A study of Mesocricetus auratus with 6 samples.

Results

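A set of 10 heat shock genes was followed in the uterus of the Syrian golden hamster (Mesocricetus auratus) on day 5 of pregnancy, the time of blastocyst attachment. Implantation sites, pieces of uterus with an embryo, were set against interimplantation sites, pieces without one, with 3 arrays of total RNA in each group. All animals were pregnant, and the labels give no treatment and no genetic change for either group. The 10 genes comprise 5 small heat shock proteins (HSPB1, HSPB2, HSPB6, HSPB8 and CRYAB), 4 mitochondrial chaperones (HSPD1, HSPE1, HSPA9 and TRAP1) and the cytosolic HSP110 protein HSPH1. They were selected on measured values, namely the opposite differences of HSPB1 and HSPD1 between these same groups. The differences between groups are therefore given as a description, with no test. Every probe set annotated to one of the 10 genes alone was used, which gave 14 of 22215 probe sets and 10 of 11963 genes. The array carries human probes, so a dim signal can mean a poor match to the hamster sequence as well as a scarce transcript. Brightness percentiles are given to show how dim a probe set was, and were not read as amounts of transcript.

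Small heat shock proteins are chaperones that work without ATP. They share an alpha-crystallin domain, assemble into oligomers and hold unfolding proteins in a soluble state. HSPB1 also binds actin and is widely expressed, whereas HSPB2, HSPB6 and CRYAB are abundant in muscle. HSPD1 and HSPE1 form the double ring and the lid of the mitochondrial chaperonin, an ATP-driven chamber in which imported proteins fold. HSPA9 pulls precursor proteins into the mitochondrial matrix, and TRAP1 is the HSP90 of that compartment.

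HSPB1 was the one small heat shock protein that stood apart, and it was lower at implantation sites. Its probe set 201841_s_at read 5.38, 5.52 and 5.33 at implantation sites, against 6.28, 6.87 and 6.20 at interimplantation sites (log2 signal). All arrays of implantation sites lay below all of interimplantation sites, with a gap of 0.68 between the groups. The means were 5.41 ± 0.10 at implantation sites and 6.45 ± 0.36 at interimplantation sites (SD, n = 3 each), a log2 difference of −1.04 ± 0.15 (implantation minus interimplantation, SE of the fit) or 2.06-fold more signal at interimplantation sites. Of all probe sets, 99.9% differed by less in either direction. No other probe set was annotated to HSPB1 alone, and this one is among those that can cross-hybridise. Interimplantation site 2 was the highest array, and without it the log2 difference was −0.83. In bulk tissue, fewer cells of a type and less RNA per cell cannot be told apart.

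The other small heat shock proteins differed little between the sites. HSPB2, a muscle small heat shock protein, read 5.44, 5.39 and 5.26 at implantation sites, against 5.33, 5.43 and 5.41 at interimplantation sites, a log2 difference of −0.02 ± 0.08 (SE). CRYAB, the alpha-B-crystallin of lens and muscle, read 5.90, 5.70 and 5.95 at implantation sites, against 5.72, 5.96 and 5.97 at interimplantation sites, a difference of −0.03 ± 0.10. In both genes the groups overlapped. HSPB6, which is phosphorylated in relaxing smooth muscle, read 5.36, 5.28 and 5.34 at implantation sites, against 5.25, 5.42 and 5.03 at interimplantation sites, and its log2 difference was 0.09 ± 0.10. HSPB8, which acts with BAG3 in the clearance of misfolded proteins, read 4.30, 4.33 and 4.33 at implantation sites, against 4.46, 4.27 and 4.41 at interimplantation sites, a difference of −0.06 ± 0.08. The arrays of the 2 groups overlapped in HSPB6 and HSPB8 as well. The direction of HSPB2, HSPB6 and CRYAB turned when single arrays were left out, with ranges of −0.06 to 0.03, −0.01 to 0.18 and −0.11 to 0.04. Of the 5 small heat shock genes, only HSPB1, for which the set was chosen, had groups that did not overlap. The median log2 difference of the 5 small heat shock genes was −0.03 beside −0.01 over all probe sets. All 5 had a mean brightness above the median of all probe sets, between the 54.0th percentile for HSPB8 and the 90.1st for HSPB1.

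**Figure D1:**
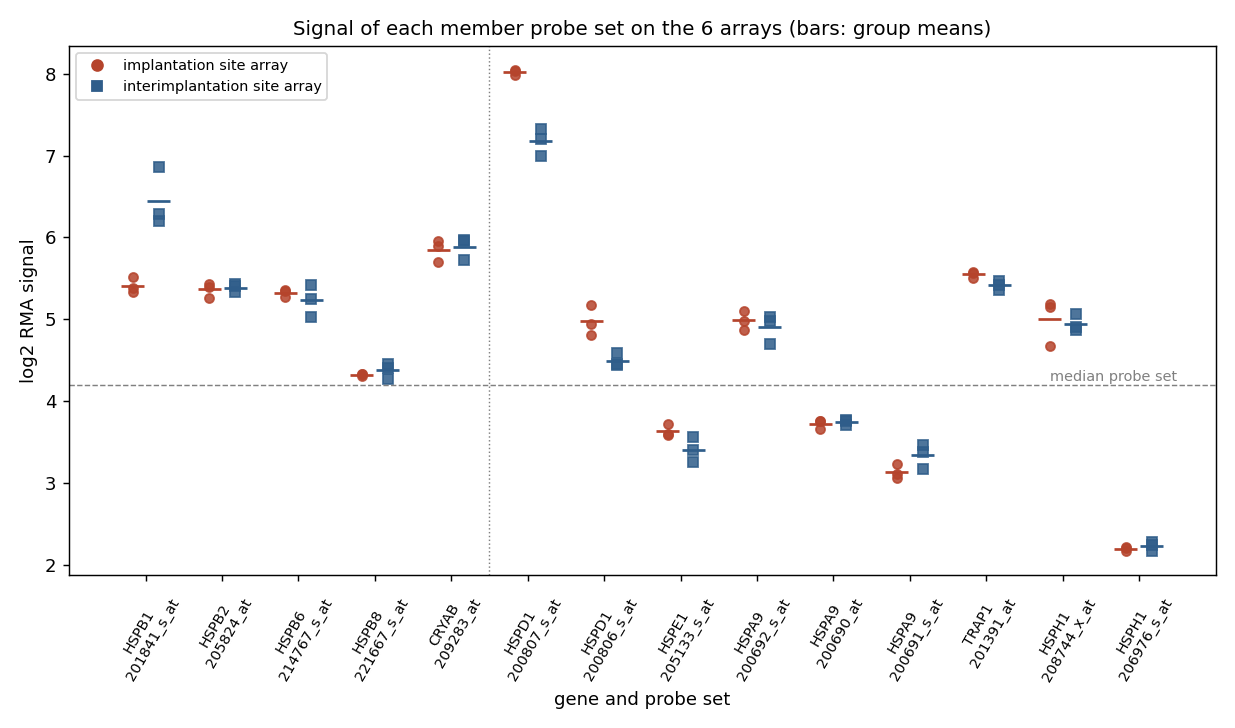
Log2 RMA signal (vertical axis) of the 14 probe sets of the 10 genes (horizontal axis), with circles for the 3 implantation site arrays, squares for the 3 interimplantation site arrays and short bars for group means; the dashed line is the median probe set. HSPB1 lies lower at implantation sites (5.41 against 6.45), HSPD1 at 200807_s_at higher (8.02 against 7.18), and most other pairs of groups overlap.

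HSPD1, the subunit of the chaperonin ring, was higher at implantation sites at both of its probe sets. At 200807_s_at it read 7.99, 8.05 and 8.04 at implantation sites, against 7.00, 7.21 and 7.33 at interimplantation sites. The means were 8.02 ± 0.03 at implantation sites and 7.18 ± 0.17 at interimplantation sites (SD, n = 3 each), a log2 difference of 0.85 ± 0.09 (SE) or 1.80-fold. The groups were 0.65 apart, and the implantation site arrays lay closer together than the interimplantation site arrays. At the dimmer 200806_s_at it read 4.94, 5.18 and 4.81 at implantation sites, against 4.44, 4.59 and 4.45 at interimplantation sites, a log2 difference of 0.48 ± 0.10 and a gap of 0.22. The mean of both probe sets gave 0.66 ± 0.08. Both are among the probe sets that can cross-hybridise. Leaving out single arrays gave 0.76 to 0.92 at the brighter and 0.38 to 0.57 at the dimmer probe set.

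HSPE1, the lid of the chaperonin, differed in the same direction as HSPD1, with groups that barely separated. Its probe set 205133_s_at read 3.59, 3.72 and 3.60 at implantation sites, against 3.41, 3.56 and 3.25 at interimplantation sites, a log2 difference of 0.23 ± 0.09 (SE). All arrays of implantation sites were higher, but the lowest of them exceeded the highest interimplantation site array by 0.03 only. This probe set was dim, at the 34.4th percentile of brightness, whereas 200807_s_at of HSPD1 was at the 99.1st, so the sizes of the 2 differences are not compared.

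The other mitochondrial chaperones had small differences. TRAP1 read 5.58, 5.50 and 5.57 at implantation sites, against 5.36, 5.47 and 5.42 at interimplantation sites, a log2 difference of 0.13 ± 0.07 (SE) with a gap of 0.04 between the groups. HSPA9 gave no single direction over its 3 probe sets. The brightest, 200692_s_at, read 4.98, 4.87 and 5.11 at implantation sites, against 4.98, 5.02 and 4.70 at interimplantation sites, a difference of 0.08 ± 0.10. The probe sets 200690_at and 200691_s_at, both below the median brightness, differed by −0.02 ± 0.07 and −0.21 ± 0.09. The groups overlapped at all 3, and the mean of the 3 probe sets differed by −0.05 ± 0.06. With single arrays left out the direction turned at 200692_s_at (−0.01 to 0.15) and at 200690_at (−0.04 to 0.02).

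HSPH1, which recharges HSP70 with ATP by nucleotide exchange, did not separate the sites. At 208744_x_at it read 5.19, 4.67 and 5.15 at implantation sites, against 4.87, 4.91 and 5.06 at interimplantation sites, and its log2 difference was 0.06 ± 0.13 (SE). Implantation site 2 was the lowest of all 6 arrays and the other implantation sites were the highest. Leaving out single arrays gave −0.04 to 0.22, the highest without implantation site 2, so the direction turned. The second probe set, 206976_s_at, was at the 4.03rd percentile of brightness, with overlapping groups (difference −0.03 ± 0.07).

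Over the 14 probe sets, 4 had all implantation site arrays above all interimplantation site arrays (both of HSPD1, and those of HSPE1 and TRAP1) and 1 had them all below (HSPB1). Over all probe sets these shares were 7.72% above and 8.3% below. In the fit across all probe sets, 2 of the 14 passed an adjusted p of 0.05 in the higher direction, both of HSPD1, and 1 in the lower, HSPB1. The dimmer probe set of HSPD1, 200806_s_at, passed in 8 of its 14 alternative fits and in only 1 of those with an array left out. The background was 0.702% of probe sets higher and 0.356% lower. Since HSPB1 and HSPD1 were chosen by this contrast, nothing is read from these counts. The median log2 difference over the 14 probe sets was 0.02.

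**Figure D2:**
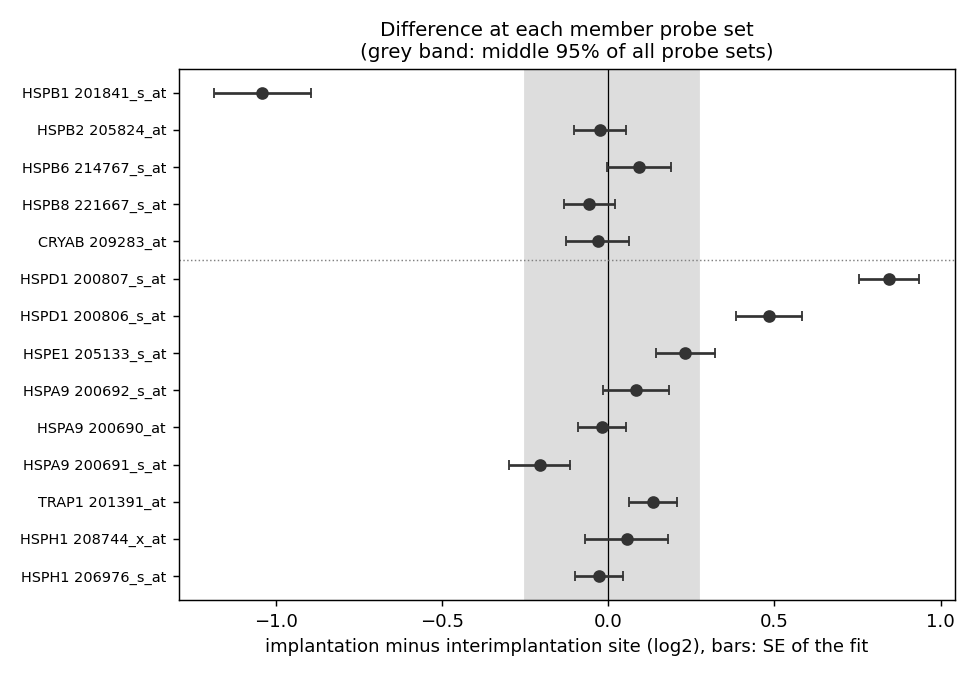
Implantation minus interimplantation site difference (log2, horizontal axis) at each of the 14 probe sets (vertical axis), with the SE of the fit as bars; the grey band spans the middle 95% of all probe sets, −0.25 to 0.27. HSPB1 (−1.04) and both probe sets of HSPD1 (0.85 and 0.48) lie outside the band, and the other 11 lie inside.

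The tissue pieces differed in other measures too. A piece of uterus holds muscle, epithelium and stroma. The mean log2 signal of 13 smooth muscle markers ranged from 4.97 to 5.02 at implantation sites, against 5.11 to 5.28 at interimplantation sites. Interimplantation site 2 was highest, as it was for HSPB1. That array was also the highest for the means of the epithelial markers (4.49) and of the stromal and decidual markers (6.10), so its peak was not particular to muscle. Of these 13 markers, ACTG2 (smooth muscle gamma-actin, log2 −0.80 ± 0.17, limma adjusted p = 0.0488) and TAGLN (transgelin, −0.56 ± 0.11, adjusted p = 0.0369) fell and 0 rose, beside 0.41% of all genes lower and 0.727% higher. In 5 of 6 fits with 1 array left out neither gene passed, the exception being the fit without interimplantation site 1, and the highest adjusted p was 0.146 for ACTG2 and 0.158 for TAGLN. ACTG2 also missed the threshold when replicate numbers entered as a block (adjusted p = 0.0785). It missed it too after cyclic loess normalization (0.0540) and with arrays centred on their medians (0.0575). In all, ACTG2 passed in 6 of 14 alternative fits and TAGLN in 9. Before adjustment (p under 0.05) 5 of the 13 markers were lower and 0 higher, where 5.28% of all genes were lower and 5.79% higher. The further 3 of these, named after their values were seen, were MYLK (myosin light chain kinase) at −0.53 ± 0.11 (adjusted p = 0.0553), TPM2 (a tropomyosin) at −0.47 ± 0.15 and CNN1 (calponin) at −0.23 ± 0.07. Averaged over its probe sets, TPM2 was at −0.28. Of the 13 markers, 5 were higher at implantation sites, by up to 0.15. All implantation site arrays lay above all interimplantation site arrays in 1 marker and below in 4, beside 7.72% and 8.3% of all probe sets. The median over the 13 markers was −0.02, and SMTN (smoothelin), the other of the 2 brightest, was at 0.02 ± 0.12. The muscle small heat shock proteins HSPB2, HSPB6 and CRYAB stood at −0.02, 0.09 and −0.03 on the same scale, with overlapping groups.

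The 13 epithelial markers also had non-overlapping mean levels, 4.34 to 4.43 at implantation sites against 4.45 to 4.49 at interimplantation sites, with 0 markers past the threshold in limma's test. At an unadjusted p under 0.05, 0 of them were higher and 3 lower, and the brightest, ELF3 and CLDN7, stood at −0.04 ± 0.11 and 0.03 ± 0.13. The part of muscle or epithelium in the HSPB1 difference was not tested. The log2 signal of beta-actin from its 3′ probes minus that from its 5′ probes, a measure of RNA quality, was −2.33, −1.99 and −1.92 at implantation sites, against −1.59, −1.87 and −1.65 at interimplantation sites. These groups did not overlap (two-sided exact permutation p = 0.1, the smallest possible with 3 against 3). The same measure for GAPDH averaged −0.20 ± 0.16 at implantation sites and 0.13 ± 0.17 at interimplantation sites (SD, n = 3 each; exact permutation p = 0.2). For beta-actin the 3′ signal was below the 5′ signal on every array. A poor match of the human probes to the hamster sequence can also shift this measure. The part of RNA quality or of probe match in the differences of HSPB1 and HSPD1 was not tested.

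**Figure D3:**
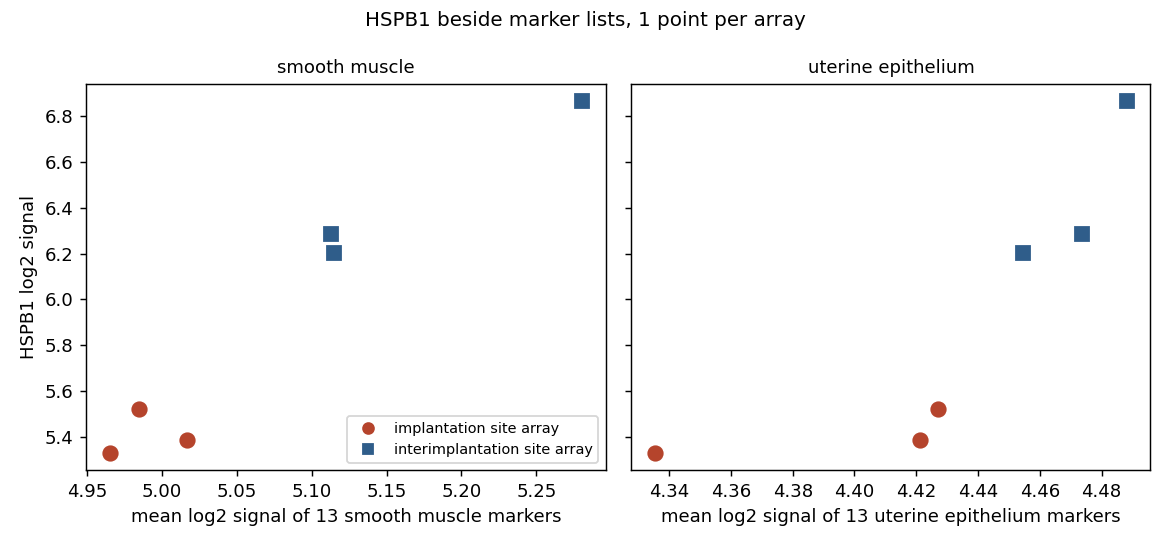
HSPB1 log2 signal (vertical axis) against the mean log2 signal of 13 smooth muscle markers (left panel) and 13 uterine epithelium markers (right panel, horizontal axes), 1 point per array, with circles for implantation and squares for interimplantation sites. Implantation site arrays lie at lower values on both axes. The highest HSPB1 value (6.87) falls on the array with the highest mean of the smooth muscle markers (5.28) and of the epithelial markers (4.49). Not all of the smooth muscle markers were lower at implantation sites: 5 of the 13 were higher, and their median difference was −0.02.

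Other cell types were measured in the same pieces. Among 11 stromal and decidual markers PDGFRA, a growth factor receptor of stroma, fell (log2 −0.66 ± 0.09, limma adjusted p = 0.00655) while COL1A1, a collagen chain, rose (0.56 ± 0.09, adjusted p = 0.00955). Both were read at their brightest probe set. The other 2 probe sets of PDGFRA were at −0.08 and −0.06 and the other 3 of COL1A1 at 0.24, 0.27 and 0.05, all with overlapping groups. Averaged over its probe sets PDGFRA was at −0.26 (adjusted p = 0.117) and COL1A1 at 0.28 (0.0677), so neither passed. At its brightest probe set COL1A1 was at 0.28 after repeated quantile normalization (adjusted p = 0.137) and missed the threshold without implantation site 1 (0.0513). The mean level of the 11 markers overlapped between the groups, at 6.02 to 6.04 in implantation sites and 5.92 to 6.10 in interimplantation sites. For 11 trophoblast and blastocyst markers it was 4.57 to 4.58 at implantation sites and 4.55 to 4.60 at interimplantation sites, with 0 past limma's threshold and 0 at an unadjusted p under 0.05 (TEAD4 at 0.04 ± 0.08 and CSH1 at 0.15 ± 0.08 were brightest). COL3A1, the second brightest stromal marker, was at 0.26 ± 0.09, and its other probe sets were at 0.26, 0.08 and −0.02. Among 11 leukocyte markers SPI1 (a myeloid transcription factor) fell, by 0.49 on the log2 scale (adjusted p = 0.0440), and passed in 1 of the 6 fits with an array left out, the one without implantation site 1 (highest adjusted p 0.161). CD3E and CSF1R, the brightest leukocyte markers, were at 0.07 ± 0.07 and 0.05 ± 0.08. In limma's test 0 of 9 endothelial markers passed, and 0 had an unadjusted p under 0.05 (ENG −0.14 ± 0.07 and TEK −0.10 ± 0.09). Of 8 markers of striated muscle 0 passed, with 1 higher and 2 lower before adjustment (ACTA1 −0.51 ± 0.11 and MB 0.36 ± 0.13). Of 3 erythroid markers 0 passed, with 0 higher and 1 lower before adjustment (HBB −0.31 ± 0.10 and SLC4A1 0.16 ± 0.09), with the other probe sets of HBB at 0.01 and −0.23. Their mean level of 6.28 to 6.34 at implantation sites did not overlap with 6.41 to 6.45 at interimplantation sites.

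HSPB1 and HSPD1 were also set beside genes of the most similar profile over the 6 arrays. Likeness was the root mean square difference between log2 profiles, each minus its own mean, over 7265 genes at or above the median brightness. Nearest to HSPB1 were IVNS1ABP, a Kelch protein that binds actin (0.153), GLUL, the glutamine synthetase (0.155), and SAT1, the acetylase of spermidine and spermine (0.163), where the median over candidates was 0.570. All of them were lower at implantation sites and highest in interimplantation site 2, the array in which HSPB1 was highest. IVNS1ABP read 4.49, 4.43 and 4.36 at implantation sites, against 4.92, 5.65 and 5.13 at interimplantation sites. GLUL read 6.13, 5.99 and 5.96 at implantation sites, against 6.87, 7.16 and 6.57 at interimplantation sites. These genes and HSPB1 share arrays and the contrast between the groups, so their likeness is a description.

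Nearest to HSPD1 were TUBA1C, an alpha-tubulin (0.0787), CCT4, a subunit of the cytosolic chaperonin (0.0827), and FKBP11, a prolyl isomerase of the endoplasmic reticulum (0.0888), where the median over candidates was 0.446. CCT4 read 8.20, 8.19 and 8.11 at implantation sites, against 7.19, 7.53 and 7.43 at interimplantation sites. Its log2 difference of 0.79 ± 0.09 (SE) stood beside 0.85 ± 0.09 for HSPD1. TUBA1C differed by 0.83 ± 0.09 and FKBP11 by 0.73 ± 0.10. In all 4 genes interimplantation site 1 was the lowest array.

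**Figure D4:**
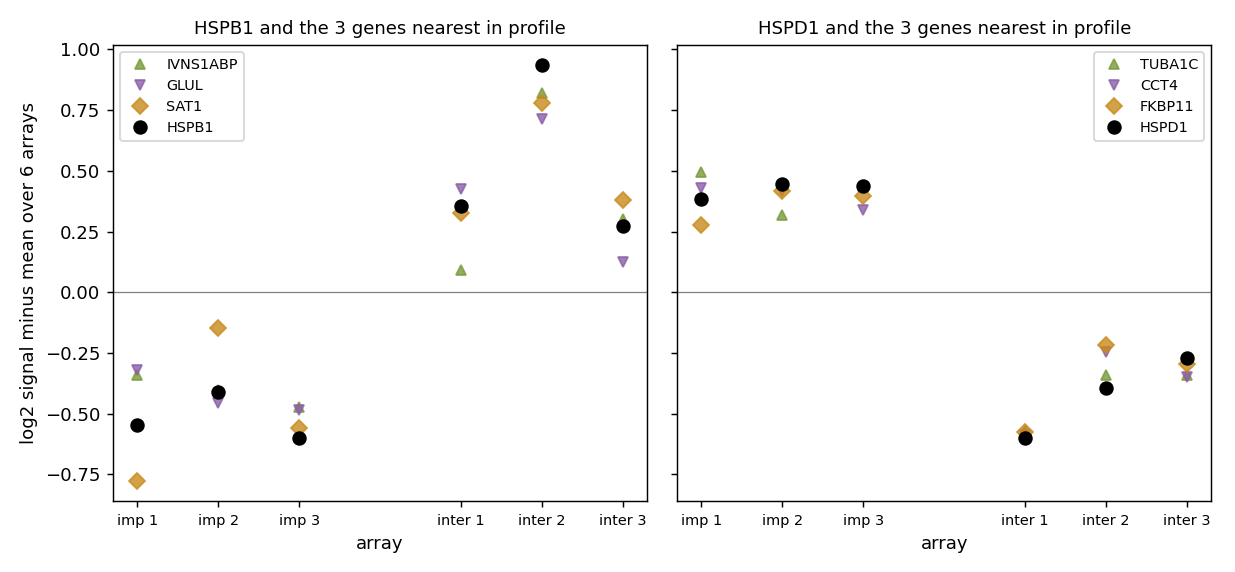
Log2 signal minus the mean over the 6 arrays (vertical axis) for HSPB1 (left panel, black) and HSPD1 (right panel, black) with the 3 genes nearest to each in profile (coloured), by array (horizontal axis; imp for implantation and inter for interimplantation sites). The genes near HSPB1 share its peak in interimplantation site 2, and those near HSPD1 share its low value in interimplantation site 1. They were picked for a like profile over these same arrays, so this is a description.

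Other chaperone genes were read in 5 lists, and those listed did not pass the threshold. The lists were chosen with earlier results of these data known, do not hold all folding genes and leave out the cytosolic chaperonin. CCT4 and the prolyl isomerase FKBP11, described above for their likeness to HSPD1, are in none of these lists. Both passed the threshold (limma adjusted p = 0.00206 and 0.00424). Of 75 measured genes in 5 lists, 0 were called higher and 0 lower in limma's test over all probe sets. Before adjustment 9 had p under 0.05 and were higher and 0 were lower, where 5.79% of all genes were higher and 5.28% lower at that level. The median log2 difference over the 75 genes was 0.00, beside −0.01 over all genes.

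The 5 further small heat shock genes had no member at an unadjusted p under 0.05, and their median was −0.03. ODF1, a sperm tail protein of the family, was at −0.18 ± 0.10 (SE). HSPB11, annotated on the array as IFT25, was at −0.10 ± 0.09, with its other probe sets at −0.03 and −0.01. For mitochondrial import, folding and proteolysis the median over 31 genes was 0.02, with 4 higher and 0 lower before adjustment (p under 0.05). TOMM70, an import receptor of the outer membrane, read 6.18, 5.88 and 5.90 at implantation sites, against 5.45, 5.70 and 5.58 at interimplantation sites (log2 difference 0.41 ± 0.10, limma adjusted p = 0.0907). BCS1L, an assembly factor of respiratory complex III, was at 0.31 ± 0.08 (adjusted p = 0.108). The other probe set of TOMM70 was at 0.08 ± 0.12 with overlapping groups, and the mean of both was at 0.24 (adjusted p = 0.359). Of the 31 genes, 4 had all implantation site arrays above all interimplantation site arrays and 2 had them all below, where the shares over all probe sets were 7.72% and 8.3%.

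In the cytosol, HSPA4 had the smallest p of the 75 genes. HSPA4 is an HSP110 protein like HSPH1 and serves HSP70 in the same way. It read 4.97, 5.01 and 5.07 at implantation sites, against 4.36, 4.80 and 4.41 at interimplantation sites, a log2 difference of 0.49 ± 0.11 (SE, limma adjusted p = 0.0601). It passed when probe sets dimmer than the median were dropped (adjusted p = 0.0422) and without interimplantation site 2 (0.00859), and in none of the other 12 fits. Its other 3 probe sets were at 0.34 (groups apart), 0.30 and −0.02 (groups overlapping). HSPA12A was at −0.17 ± 0.10, and the median over 8 HSP70 and HSP110 genes was 0.00, with 1 higher and 0 lower before adjustment. The HSP70 genes HSPA1A, HSPA1B and HSPA8 had no probe set annotated to them alone, so they were not read.

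Of 27 cochaperones of HSP70, 4 were higher and 0 lower before adjustment, and their median was 0.00. BAG6, which guards hydrophobic proteins in the cytosol, was at 0.25 ± 0.09 (SE) and DNAJA1, a J protein, at 0.18 ± 0.07, with its other probe set at 0.03. Among 4 heat shock factors and regulators 0 had an unadjusted p under 0.05. HSF2BP, which binds heat shock factor 2, was at 0.13 ± 0.07 and HSBP1, a regulator of HSF1, at 0.01 ± 0.08. HSF1, the factor that drives heat shock genes and named after its value was seen, was at 0.00 ± 0.09, and at −0.18 ± 0.09 at its other probe set.

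**Figure D5:**
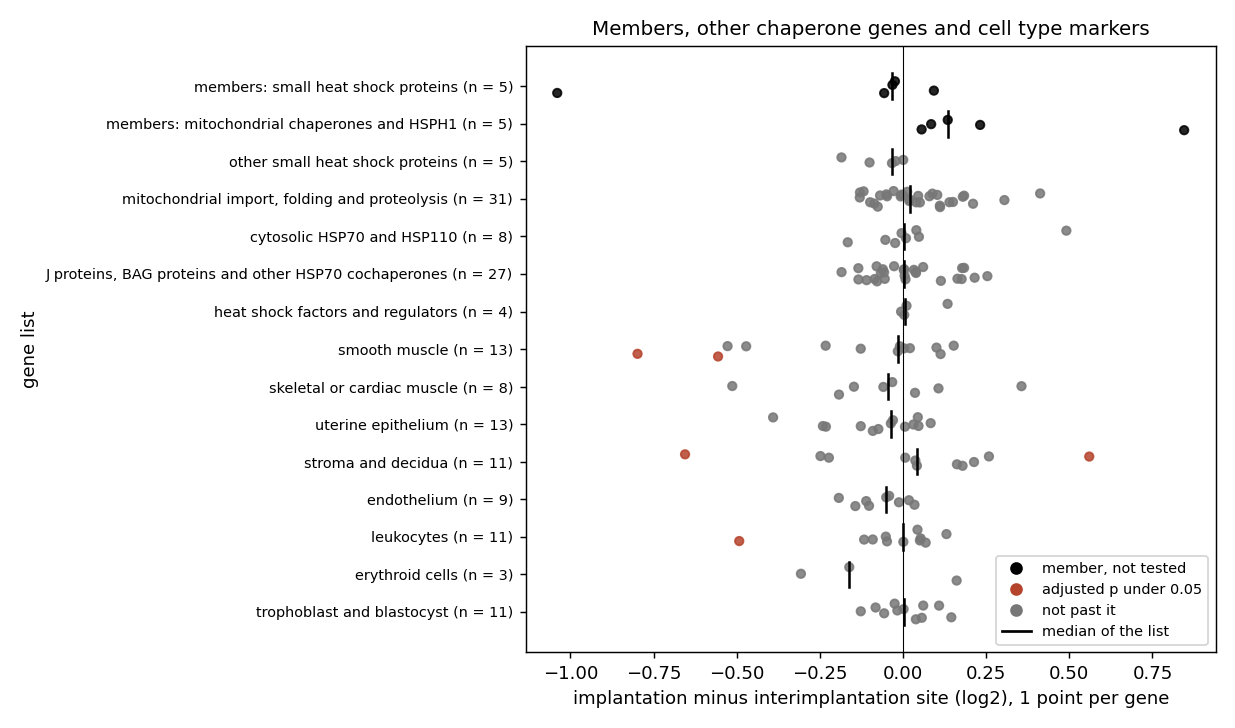
Implantation minus interimplantation site difference (log2, horizontal axis) with 1 point per gene at its brightest probe set, for the 10 chosen genes in black, 5 lists of other chaperone genes and 8 lists of cell type markers (vertical axis); bars are list medians and red points passed an adjusted p of 0.05. HSPB1 (−1.04) and HSPD1 (0.85), for which the set was chosen, lie beyond all other chaperone genes shown, of which HSPA4 (0.49) was next. The lists leave out the cytosolic chaperonin, whose subunit CCT4 was at 0.79, and the prolyl isomerase FKBP11, at 0.73.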

How the data were processed

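Total RNA of 6 hamster uterus pieces was hybridised to an Affymetrix human array. The deposited values were taken as log2 signals from their range (1.65 to 12.1), 1 for each probe set on each array. Per the submitters' processing notes the authors used Partek 6.6 and RMA. The RMA settings and the log base are not given in these sources. Array medians were 4.18 to 4.20. Correlations were 0.989 to 0.995 within groups and 0.985 to 0.992 between them. The number of arrays limits the precision. The labels call them biological replicates and name no animal, so p-values reflect only the spread over these 6 arrays, which may be technical in part.

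After 68 control probe sets were left out, 22215 were fitted in R 4.3.3 by limma 3.58.1 (functions lmFit and eBayes, no covariate, two-sided, Benjamini-Hochberg over all probe sets, threshold 0.05). Platform annotation gave 1 gene to 19065 probe sets, several to 1043 and none to 2107. A gene outside the 10 was read at its brightest probe set, without a new fit. RNA quality was compared by an exact permutation test. The fit was tested on simulated data.

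Samples were grouped by the labels. Members and lists were chosen with earlier results of these data known. Named genes were the members at every probe set; in each chaperone list those past the threshold and otherwise the 2 with the smallest p; in marker lists those past the threshold and the 2 brightest; and the 3 nearest profiles. Of the 10 members, 9 had a hamster gene of that symbol in RefSeq (BCM_Maur_2.0). A promoter motif search was planned; promoter sequence was not used here. Alternatives were other normalizations, array weights, an intensity trend, brightness filters, a replicate block, other probe sets per gene, and each array left out.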

Additional observations from a re-analysis of the deposited data

How the results depend on the processing

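The differences of the 14 probe sets moved by less than the spread between replicates under all alternatives that could be computed, among them array weights (HSPB1 at −1.12) and repeated quantile normalization (HSPD1 at 200807_s_at 0.83). Numbers of calls depended more on the arrays. Leaving out single arrays gave 83 to 140 probe sets higher (main value 156) and 33 to 90 lower (79), and 48 to 82 genes higher (87) and 17 to 56 lower (49); by construction each such fit has fewer arrays. The lowest counts came without implantation site 1 (86 and 33 probe sets, 48 and 17 genes) and without interimplantation site 3 (83 and 42, 49 and 25). Counts of lower genes were also small without implantation site 3 (22) and without interimplantation site 2 (25). Array weights gave 133 probe sets and 84 genes lower, and averaging the probe sets of each gene gave 26 genes lower; the cause was not tested. Without the probe sets that can cross-hybridise, fewer were tested, and 37 probe sets were higher and 20 lower (26 and 13 genes); of the 14 this leaves only HSPB2, CRYAB, TRAP1 and 200690_at of HSPA9. Within the 5 lists of other chaperone genes, the count called higher was 1 among bright probe sets and 0 to 1 with single arrays left out. With the replicate number as a block, 159 probe sets were higher and 93 lower. Deviations of same-numbered arrays from their group means had correlations of 0.05, −0.00 and 0.07, beside −0.07 to 0.02 for arrays of unlike number. With 3 arrays per group, these values cannot settle whether same-numbered arrays came from the same animal.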
